A study of Homo sapiens with 12 samples.

Results

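The genes described here encode the transcription factors at the end of the Hippo pathway and the cofactors that bind them: the coactivators YAP1 and WWTR1 (whose protein is called TAZ), the DNA-binding factors TEAD1, TEAD2, TEAD3 and TEAD4, and the vestigial-like cofactors VGLL3 and VGLL4. They were chosen by symbol, which matched 8 of the 58302 genes of the deposited tables, and all 8 passed the filter on low counts. RNA was sequenced from NCI-H226, a human mesothelioma line sensitive to GNE-7883, a small molecule that inhibits TEAD, and from NCI-H226_CL3, a resistant line derived from it. Both lines were given DMSO, the vehicle, or GNE-7883, which makes 4 groups of 3 libraries. The resistant line is a single line, selected in a TEAD inhibitor raised from 0.25 to 3 µM, and NF2, an upstream Hippo gene, is null in it and its parent per the labels. All 4 groups share that background. For the last incubation with GNE-7883, dose and duration were not given in the sources used here.

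In the Hippo pathway, the kinases LATS1 and LATS2 phosphorylate YAP1 and TAZ, which keeps them out of the nucleus and marks them for degradation. Neither coactivator binds DNA itself, and both act by binding a TEAD protein on DNA, where they raise transcription of growth and matrix genes. Loss of NF2, frequent in mesothelioma, weakens the kinases, and VGLL4 competes with YAP1 and TAZ for TEAD. GNE-7883 binds the lipid pocket of TEAD proteins and interferes with their binding to YAP1 and TAZ. RNA levels say nothing about the phosphorylation, location or binding of these proteins.

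TEAD proteins recognise the letters GGAATG, so the promoters of the members were searched for that core, on both strands. RefSeq windows on GRCh38.p14 that hold 250 bases before and 50 bases after a start site were found for 6 of the 8 genes, in 12 windows, and for neither TEAD1 nor TEAD4. Only YAP1 held the core, 162 bases before its start, at chr11:102110285-102110290 on the plus strand. Of all 35116 windows, 14% held it. No member window held the AP-1 letters TGANTCA (both strands, no overlap with the core), which stood in 7.71% of all windows. The YAP1 sequence is shown because it is the only match among the members, from chr11:102110197-102110446, plus strand, 5′ to 3′, with the TEAD core in capitals.
YAP1: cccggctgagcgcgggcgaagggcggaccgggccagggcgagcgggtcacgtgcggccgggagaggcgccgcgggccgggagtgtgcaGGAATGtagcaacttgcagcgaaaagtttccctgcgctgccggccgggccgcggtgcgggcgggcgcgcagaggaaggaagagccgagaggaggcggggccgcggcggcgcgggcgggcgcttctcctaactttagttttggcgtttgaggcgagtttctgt
A match is a description of these letters and not a measured binding site.

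Libraries held 31878934 to 46962645 counts, and the smallest member count, 431 for TEAD2 in the third sensitive DMSO library, is far above the floor of 3 counts. A single library, sensitive DMSO replicate 2, differed widely from its group. A chi-square per degree of freedom, taken between its counts and those of replicates 1 and 3 was 39.4 and 45.5, against 3.33 between the latter and 3.51 to 11.3 within the other groups. Its ratio to the mean of replicates 1 and 3 fell with exonic length, from a median log2 ratio of 0.26 for genes under 2 kb to -0.23 for genes over 8 kb. The members moved in the same direction: TEAD1 and VGLL3, which have the longest exonic sequence of the 8, stood at -0.80 and -0.71, and TEAD2, TEAD4 and TEAD3, the shortest, at 0.19, 0.11 and 0.08. The 3 remaining members lay between, with YAP1 at -0.43, WWTR1 at -0.33 and VGLL4 at -0.23. Genes over 8 kb had a 5th percentile of -0.77, so TEAD1 lay below it and VGLL3 just above it. For genes of 6 to 8 kb, the class of YAP1 and VGLL4, the median was -0.08 and the 5th percentile -0.49. TEAD2, TEAD3 and TEAD4 lay near the median of 0.15 of genes of 2 to 4 kb. Member results whose call or sign this library changes, or that move by over 1.5 times without it, are given with and without it. Single genes other than the members, and the counts called in the lists, are given only with this library included.

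**Figure D1:**
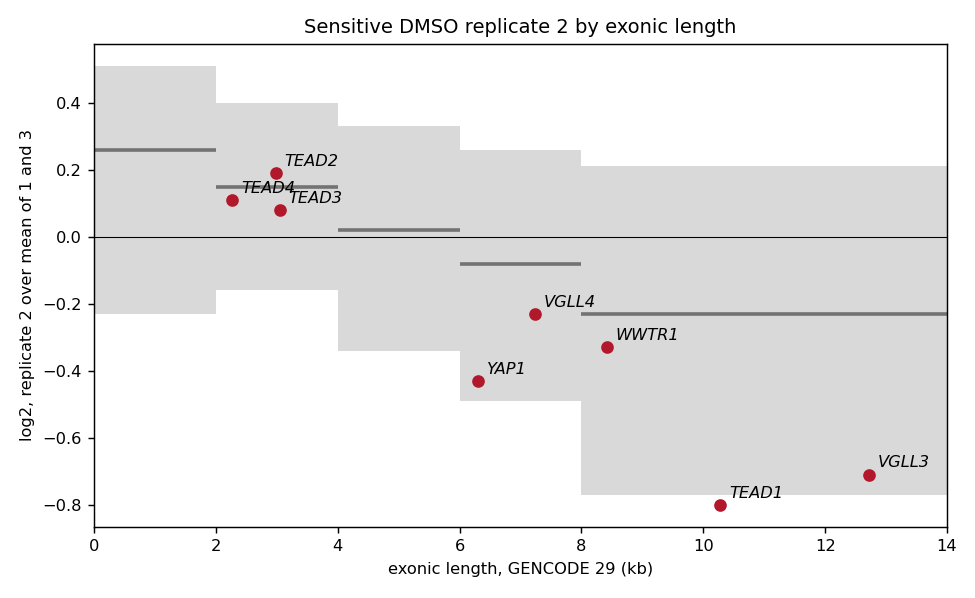
Log2 ratio of sensitive DMSO replicate 2 to the mean of replicates 1 and 3 (y axis) against exonic length in kb (x axis), with members as points, the median of all genes of at least 5 CPM in each length class as a line and their 5th to 95th percentile in grey, the class over 8 kb being drawn to the edge of the axis. TEAD1 at -0.80 and VGLL3 at -0.71 lie lowest, and TEAD2 at 0.19 lies highest.

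The labels name both lung epithelium and mesothelioma. Of 10 mesothelial markers, 9 averaged at least 1 CPM (counts scaled to library size), MSLN, CALB2 and WT1 among them. The list summed to 5169 to 5980 CPM in DMSO and 6237 to 6524 CPM in GNE-7883 libraries of the sensitive line. In those of the resistant line it summed to 2547 to 2921 and 3122 to 3445 CPM. With GNE-7883 in sensitive cells WT1 (176 to 151 CPM), KRT5 (80.7 to 31) and KRT19 (2402 to 2238) were lower and the others higher. In DMSO only KRT5 was higher in the resistant line, at 106 against 80.7 CPM. Keratins carried the epithelial sum of 4564 to 12291 CPM, while EPCAM had at most 3 counts in a library and GRHL2 had 0. Of the alveolar and airway markers, 0 of 6 averaged 1 CPM, and their sum was at most 2.33 CPM. The endothelial sum, nearly all from KDR, was 49.3 to 63.7, 180 to 196, 22.8 to 24.2 and 32.1 to 35.3 CPM in the same group order, with PECAM1, CDH5 and TEK below 1 CPM in every group. The fibroblast sum was 934 to 1018, 606 to 677, 525 to 625 and 644 to 740 CPM in that order, and 4 of its 6 markers averaged at least 1 CPM. COL1A1 (389 to 670 CPM by group), THY1 (119 to 165) and PDGFRB (26.3 to 126) carried it. PDGFRA averaged 1.91 CPM in DMSO and 16.6 CPM in GNE-7883 in sensitive cells, and LUM was at or near 0. The blood sum ran from 2.55 to 15.7 CPM, almost all ITGAM, with CD3E and CD68 at 0. NF2 had 15 counts over the 12 libraries and at most 4 in any of them. These sums differ between the groups, and their part in the members' differences was not tested. In bulk RNA, fewer cells of a type and less RNA per cell cannot be told apart.

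On the RPKM scale, which divides by gene length and so lets genes be set side by side, TEAD1 and YAP1 were the most abundant members over the 12 libraries, at means of 50 and 44.5 RPKM. They stood above 92.8% and 91.9% of the 18035 genes tested. TEAD2 was the least abundant, at 6.27 RPKM, above 59.8% of tested genes. The orders below hold only for the gene lengths behind the deposited RPKM. For WWTR1 that length is 5367 bases against 8413 of GENCODE exons, and for VGLL4 5059 against 7236. With GENCODE lengths close members, VGLL4 and TEAD3 among them, can change places. In sensitive DMSO cells the order of mean RPKM was TEAD1 (48), TEAD4 (47.8), YAP1 (35.4), VGLL3 (29.1), VGLL4 (11.5), TEAD3 (10.6), WWTR1 (8.87) and TEAD2 (4.55). The libraries of TEAD1 and TEAD4, of YAP1 and VGLL3, and of VGLL4 and TEAD3 overlapped in that group, each time through replicate 2. In replicates 1 and 3 TEAD1 read 54.4 and 57.2 RPKM against 45.4 and 47.2 for TEAD4. YAP1 read 38.4 and 38.8 there against 33.2 and 33.3 for VGLL3, and VGLL4 11.8 and 12.3 against 10.2 and 10.6 for TEAD3. In sensitive GNE-7883 cells TEAD1 (65.7 RPKM) and YAP1 (49.3) led, followed by VGLL3 (30.9), TEAD4 (23.8), WWTR1 (15.6), VGLL4 (12.9), TEAD3 (8.17) and TEAD2 (7.93), and the only overlapping neighbours were the last pair. WWTR1 thus stood above VGLL4 and TEAD3 in that group and below both in the others. The resistant line had 1 order in both media: YAP1 (46.8 RPKM in DMSO, 46.5 in GNE-7883), TEAD1 (43.7, 42.6), TEAD4 (28.7, 26.6), VGLL3 (21.6, 22.6), VGLL4 (13.3, 14.6), TEAD3 (12, 12.2), WWTR1 (7.57, 9.49) and TEAD2 (5.58, 7.02). Only YAP1 and TEAD1 in DMSO overlapped there.

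**Figure D2:**
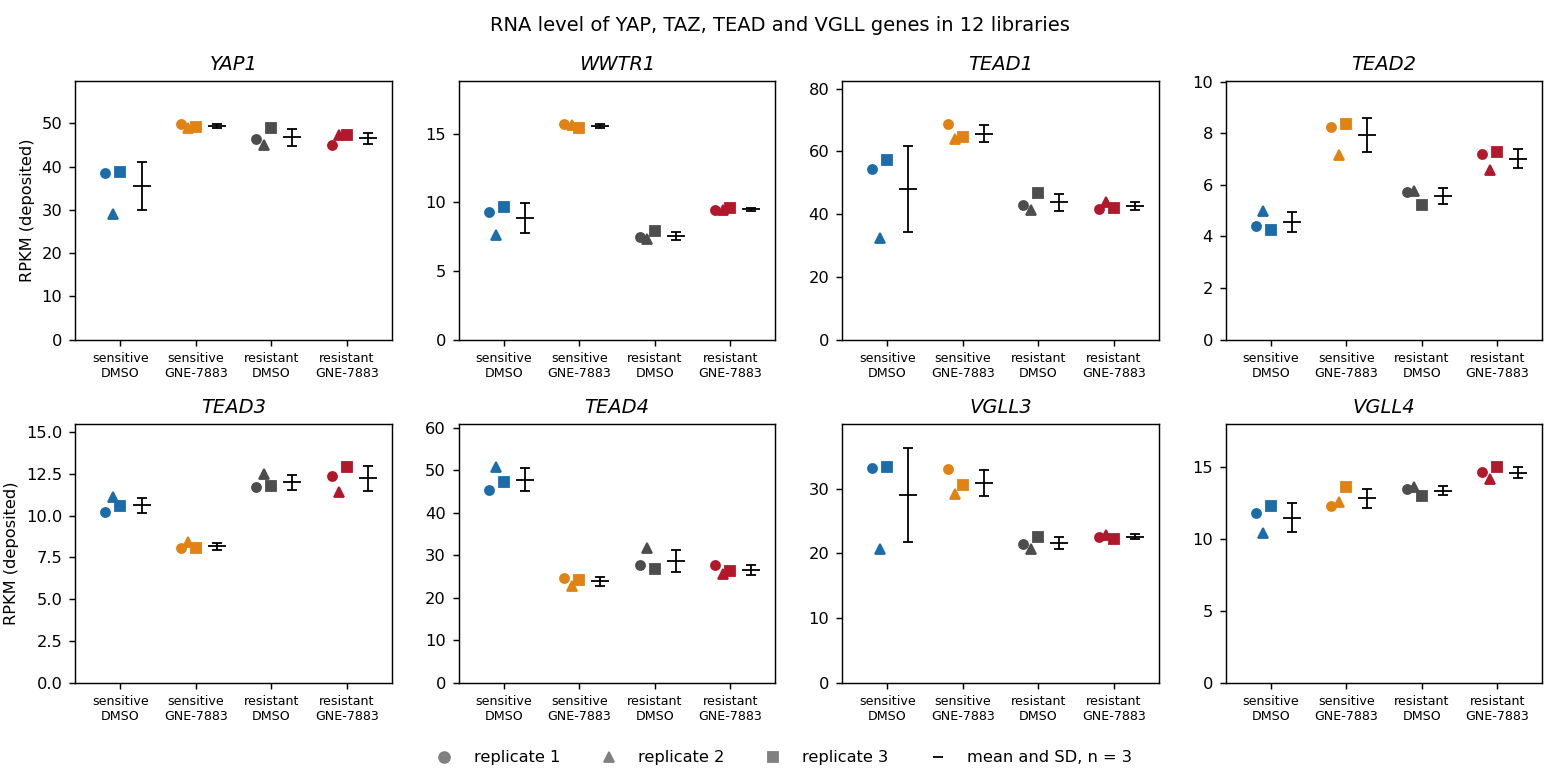
RPKM of each member (y axis) in every library of the 4 groups (x axis), with points for libraries and bars for the group mean. TEAD4 drops from a mean of 47.8 to 23.8 RPKM with GNE-7883 in sensitive cells, and sensitive DMSO replicate 2 lies low for TEAD1 and VGLL3.

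A gene is said to have risen or fallen where the adjusted p of the edgeR quasi-likelihood test, Benjamini-Hochberg over all 18035 genes, was under 0.05. GNE-7883 in sensitive cells moved 6 of the 8 members, 4 up (YAP1, WWTR1, TEAD1, TEAD2) and 2 down (TEAD3, TEAD4). Of all genes tested, 58.1% were called in that comparison, 29.8% higher and 28.4% lower, so most genes tested were called there too. In resistant cells 2 of 8 were called, WWTR1 and TEAD2, both higher, against 9.22% of all genes, 5.25% higher and 3.97% lower. Between the lines in DMSO, 5 of 8 differed, YAP1 and TEAD2 higher in the resistant line and WWTR1, TEAD4 and VGLL3 lower, against 48.7% of all genes, 24.2% higher and 24.4% lower. In GNE-7883, 5 of 8 differed, TEAD3 higher and WWTR1, TEAD1, TEAD2 and VGLL3 lower, against 61.9% of all genes, 30.7% higher and 31.1% lower. Resistant cells in GNE-7883 differed from the untreated parent in 5 of 8, YAP1, TEAD2 and VGLL4 higher and TEAD4 and VGLL3 lower, against 47.1% of all genes, 23.1% higher and 24% lower. That split of all genes, 4162 higher and 4333 lower, was 4996 and 3350 with limma on RPKM. The splits between the lines moved the same way, from 4367 and 4408 to 5231 and 3531 in DMSO and from 5544 and 5615 to 6294 and 4855 in GNE-7883. With limma on RPKM the median log2 difference of all genes between the lines was 0.07 in DMSO and 0.06 in GNE-7883. With edgeR these medians were -0.00 and -0.01. The response to GNE-7883 itself differed between the lines, by the interaction term, for 5 of 8, TEAD3 and TEAD4 positive and YAP1, WWTR1 and TEAD2 negative, against 35.7% of all genes, 19% higher and 16.7% lower. The comparisons share groups, so they are not independent of each other. The members' median log2 change was 0.31 in sensitive cells, against 0.02 over all genes, and 0.04 in resistant cells, against -0.00.

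**Figure D3:**
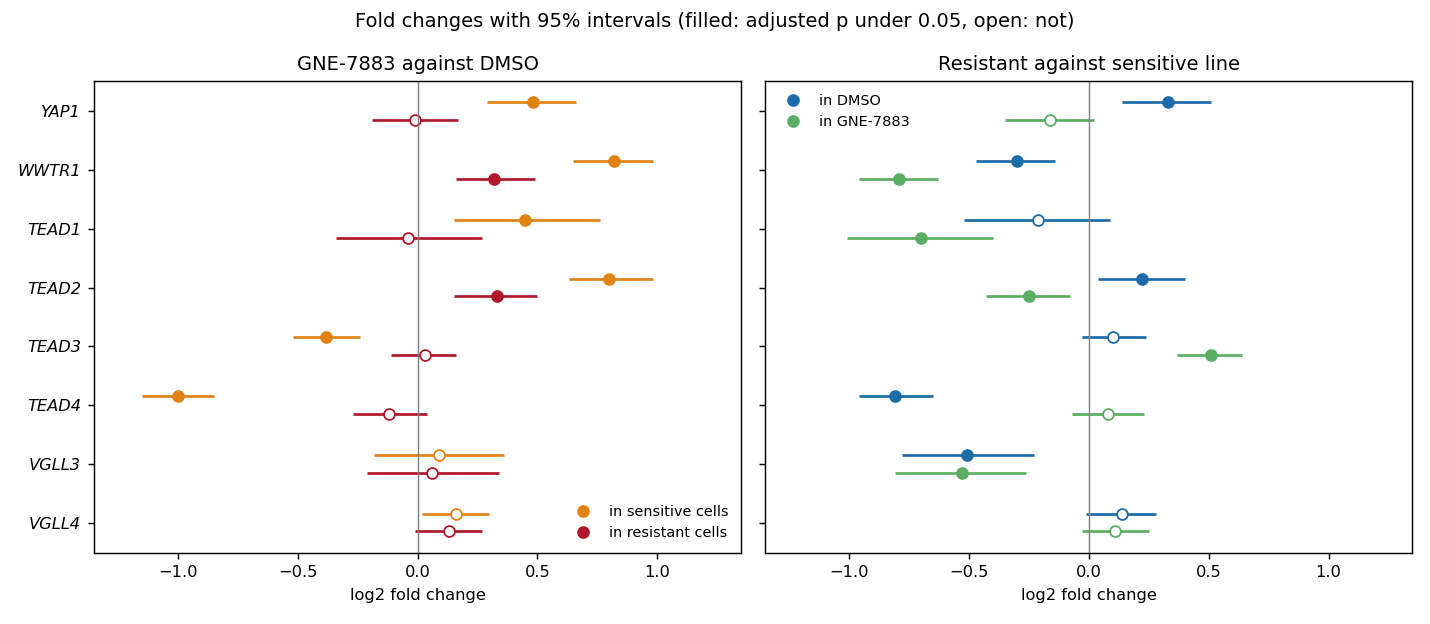
Log2 fold change of each member (x axis) with its 95% interval in the comparisons of treatment and line, filled where the edgeR test called it. TEAD4 at -1.0 and WWTR1 at 0.82 are the widest changes with GNE-7883 in sensitive cells.

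The coactivators rose with GNE-7883 in sensitive cells. YAP1 (ENSG00000137693, chr11:102110461-102233423, plus strand, GRCh38) stood at 222, 167 and 226 CPM, scaled by TMM, in sensitive DMSO replicates 1 to 3 and at 289, 284 and 284 CPM in sensitive GNE-7883. Resistant libraries held 253, 248 and 269 CPM of YAP1 in DMSO and 248, 257 and 260 CPM in GNE-7883. The 3 sensitive DMSO libraries were thus the lowest of the 12, the 3 sensitive GNE-7883 libraries the highest, and the resistant groups overlapped each other. YAP1 rose 1.39-fold in sensitive cells, or 0.48 ± 0.086 on the log2 scale (± standard error here and below, adjusted p = 0.00019, edgeR), and 0.35 without replicate 2. In resistant cells its log2 fold change was -0.01, with a 95% interval from -0.19 to 0.17. The responses differed by -0.49 ± 0.12 (adjusted p = 0.00533, edgeR), or by -0.35 without that library. In DMSO the resistant line held 0.33 ± 0.086 more YAP1 on the log2 scale than the sensitive line (adjusted p = 0.00532, edgeR), which moved to 0.20 without sensitive DMSO replicate 2 (adjusted p = 0.000923). Resistant GNE-7883 cells against sensitive DMSO cells gave 0.32 ± 0.086 (adjusted p = 0.0068, edgeR), or 0.19 without that replicate. Between the lines in GNE-7883 the log2 difference was -0.16, interval -0.35 to 0.02, and not called (adjusted p = 0.114, edgeR). Without replicate 2 of sensitive DMSO it was called at -0.15 (adjusted p = 0.00237), and over all alternatives this p ran from 0.00168 to 0.428.

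WWTR1 (ENSG00000018408, chr3:149517235-149736714, minus strand) moved further than its paralog in sensitive cells. WWTR1 read 51.4, 41.7 and 53.6 CPM in the sensitive DMSO libraries and 86.8, 86.2 and 85 CPM in sensitive GNE-7883. In resistant cells it read 38.8, 38.6 and 41.5 CPM in DMSO and 49.6, 48.9 and 50.3 CPM in GNE-7883. Within each line the treated libraries all exceeded the untreated ones, and the resistant GNE-7883 libraries fell inside the range of sensitive DMSO. The rise was 1.76-fold in sensitive cells, 0.82 ± 0.076 on the log2 scale (adjusted p = 1.68e-07, edgeR), and 1.25-fold in resistant cells, 0.32 ± 0.077 (adjusted p = 0.0142, edgeR). Without sensitive DMSO replicate 2 the sensitive response was 0.71, the difference of the responses -0.38 and the line difference in DMSO -0.40, all called. The smaller response of the resistant line was itself called, at -0.49 ± 0.11 (adjusted p = 0.00208, edgeR). The call in resistant cells was lost without resistant DMSO replicate 1 (adjusted p = 0.0762) or 2 (0.0568) and without resistant GNE-7883 replicate 3 (0.0672), the adjusted p running from 4.03e-05 to 0.0762 over all alternatives. Resistant cells held less WWTR1 than sensitive cells in DMSO, by -0.30 ± 0.077 (adjusted p = 0.00393, edgeR), and in GNE-7883, by -0.79 ± 0.076 (adjusted p = 1.62e-07, edgeR). Resistant cells in GNE-7883 stood 0.02 from untreated sensitive cells on the log2 scale, with an interval from -0.14 to 0.18, or -0.07 without sensitive DMSO replicate 2.

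The ratio of WWTR1 to YAP1, in RPKM, parted all 4 groups without overlap. In sensitive cells WWTR1 amounted to 25.1 ± 1.02% of YAP1 in DMSO and 31.6 ± 0.208% in GNE-7883, and in resistant cells to 16.2 ± 0.14% and 20.4 ± 0.473% (SD, n = 3). Sensitive DMSO replicate 2, at 26.2%, lay next to replicates 1 and 3 at 24.2% and 24.9%. The percentages depend on the gene lengths behind the RPKM and not their order: with GENCODE exon lengths they were 17.9%, 22.6%, 11.6% and 14.6%.

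Of the DNA-binding factors, TEAD4 changed the most. TEAD4 (ENSG00000197905, chr12:2959330-3040673, plus strand) measured 84.3, 93.2 and 87.9 CPM in sensitive DMSO and 45.8, 42 and 44.8 CPM in sensitive GNE-7883. Resistant libraries measured 48.5, 56 and 47.3 CPM of TEAD4 in DMSO and 49.3, 44.8 and 46.1 CPM in GNE-7883. The sensitive DMSO libraries stood far above the other 9. Resistant GNE-7883 libraries overlapped both sensitive GNE-7883 and resistant DMSO libraries, which did not overlap each other. GNE-7883 lowered TEAD4 2-fold in sensitive cells, a log2 fold change of -1.0 ± 0.071 (adjusted p = 7.65e-09, edgeR), and in resistant cells the log2 fold change was -0.12, interval -0.27 to 0.04. The difference of the responses, 0.88 ± 0.1, was the largest among the members (adjusted p = 5.35e-06, edgeR). In DMSO the resistant line held less TEAD4, by -0.81 ± 0.071 (adjusted p = 1.19e-07, edgeR), and in GNE-7883 the lines differed by 0.08, interval -0.07 to 0.23. Resistant GNE-7883 cells stood below sensitive DMSO cells by -0.92 ± 0.071 (adjusted p = 2.8e-08, edgeR). None of these TEAD4 calls was lost under any alternative run.

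TEAD1 (ENSG00000187079, chr11:12674591-12944483, plus strand), the most abundant of the 4 on the RPKM scale over all libraries, varied widely between the sensitive DMSO replicates. It stood at 519, 305 and 547 CPM in sensitive DMSO and at 654, 609 and 614 CPM in sensitive GNE-7883. In the resistant line it stood at 386, 375 and 424 CPM in DMSO and at 379, 393 and 381 CPM in GNE-7883. Sensitive DMSO replicate 2 lay below every resistant library, and replicates 1 and 3 above all of them. TEAD1 rose by 0.45 ± 0.14 on the log2 scale with GNE-7883 in sensitive cells (adjusted p = 0.013, edgeR), or by 0.23 without replicate 2 (adjusted p = 0.00083), and was not called when only those 2 groups were fitted (0.44, adjusted p = 0.0676). In resistant cells the value was -0.04, interval -0.34 to 0.27. In GNE-7883 the resistant line held less TEAD1, by -0.70 ± 0.14 (adjusted p = 0.000496, edgeR), without overlap. In DMSO the difference of -0.21 (interval -0.52 to 0.09, adjusted p = 0.245, edgeR) was called at -0.43 without replicate 2 (adjusted p = 6.76e-07, range over the alternatives 6.76e-07 to 0.761). Resistant GNE-7883 against sensitive DMSO gave -0.25 (adjusted p = 0.169, edgeR), called at -0.46 without that library (adjusted p = 2.36e-07, range 2.36e-07 to 0.616). The difference of the responses was -0.49 ± 0.2 and not called (adjusted p = 0.0705, edgeR), yet it was called without sensitive DMSO replicate 1 (-0.59, 0.038), 2 (-0.27, 0.00466) or 3 (-0.63, 0.0187), with p from 8.52e-06 to 0.197 over the alternatives.

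TEAD2 (ENSG00000074219, chr19:49340595-49362457, minus strand) rose in both lines. Its libraries read 12.2, 13.7 and 11.8 CPM in sensitive DMSO and 22.8, 19.8 and 23.1 CPM in sensitive GNE-7883. Resistant cells had 14.9, 15.2 and 13.7 CPM of TEAD2 in DMSO and 19, 17.1 and 19.1 CPM in GNE-7883. The treated libraries lay above the untreated ones in each line, and the 4 groups did not overlap, though the highest sensitive and the lowest resistant DMSO library both read 13.7 CPM. TEAD2 rose 1.75-fold in sensitive cells, by 0.80 ± 0.084 on the log2 scale (adjusted p = 6.29e-07, edgeR), and by 0.33 ± 0.083 in resistant cells (adjusted p = 0.0211, edgeR). The responses differed by -0.48 ± 0.12 (adjusted p = 0.005, edgeR). The call in resistant cells was lost without resistant DMSO replicate 3 (adjusted p = 0.0774) and without resistant GNE-7883 replicate 1 (0.0638) or 3 (0.0758), with p from 0.00316 over the alternatives. Between the lines TEAD2 differed by 0.22 ± 0.085 in DMSO (adjusted p = 0.04, edgeR) and by -0.25 ± 0.082 in GNE-7883 (adjusted p = 0.0135, edgeR). The call in DMSO was lost without sensitive DMSO replicate 1 (0.0948) or 3 (0.117), resistant DMSO replicate 1 (0.108) or 2 (0.105), or resistant GNE-7883 replicate 3 (0.0512), with no low-count filter (0.076), when only those groups were fitted (0.0852) and with a replicate block (0.0584). The call in GNE-7883 was lost without sensitive GNE-7883 replicate 1 (0.0612) or 3 (0.0679) or resistant GNE-7883 replicate 2 (0.094), with no low-count filter (0.0608) and with limma on RPKM (0.0888). Resistant GNE-7883 cells held 0.55 ± 0.084 more TEAD2 than sensitive DMSO cells on the log2 scale (adjusted p = 5.46e-05, edgeR).

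TEAD3 (ENSG00000007866, chr6:35473597-35497076, minus strand) fell with TEAD4 in sensitive cells. TEAD3 read 31.2, 33.8 and 32.6 CPM in sensitive DMSO and 24.7, 25.8 and 24.6 CPM in sensitive GNE-7883. In the resistant line it read 33.8, 36.4 and 34.5 CPM in DMSO and 36.2, 32.9 and 37.5 CPM in GNE-7883. The sensitive GNE-7883 libraries were the lowest of the 12, and the other 3 groups lay close together. TEAD3 fell by 0.38 ± 0.065 on the log2 scale in sensitive cells (adjusted p = 0.000121, edgeR), and in resistant cells the value was 0.03, interval -0.11 to 0.16. The responses differed by 0.40 ± 0.091 (adjusted p = 0.00254, edgeR), and the lines differed in GNE-7883 by 0.51 ± 0.065 (adjusted p = 4.77e-06, edgeR). In DMSO the line difference of 0.10, interval -0.03 to 0.24, was not called (adjusted p = 0.209, edgeR), but limma on RPKM called it at 0.17 (adjusted p = 0.0247, range over the alternatives 0.0247 to 0.495). In that limma fit the median of all genes stood at 0.07, against -0.00 with edgeR. Resistant GNE-7883 against sensitive DMSO gave 0.13 (adjusted p = 0.115, edgeR), called without sensitive DMSO replicate 2 (0.16, 0.0399) or resistant GNE-7883 replicate 2 (0.17, 0.0452), with p from 0.0123 to 0.359 over the alternatives.

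The make-up of the TEAD family followed from these changes. Of the summed TEAD RPKM, TEAD1 held 42.7 ± 8.75% in DMSO and 62.2 ± 0.673% in GNE-7883 in the sensitive line, and 48.6 ± 3.17% and 48.2 ± 1.76% in the resistant line (SD, n = 3). TEAD4 held 43.5 ± 6.64%, 22.6 ± 0.402%, 31.9 ± 2.62% and 30.1 ± 1.04% in the same order. Without replicate 2 the sensitive DMSO shares were 47.8% for TEAD1 and 39.6% for TEAD4. The TEAD4 share in sensitive cells therefore lay between 39.6% and 51.1% in DMSO and between 22.2% and 23% in GNE-7883, with the resistant libraries, at 29.3% to 34.7%, between the sensitive groups. TEAD3 held 9.67 ± 1.34%, 7.75 ± 0.45%, 13.3 ± 0.302% and 13.8 ± 0.779%, and TEAD2 held 4.15 ± 0.78%, 7.5 ± 0.469%, 6.2 ± 0.383% and 7.94 ± 0.372%.

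**Figure D4:**
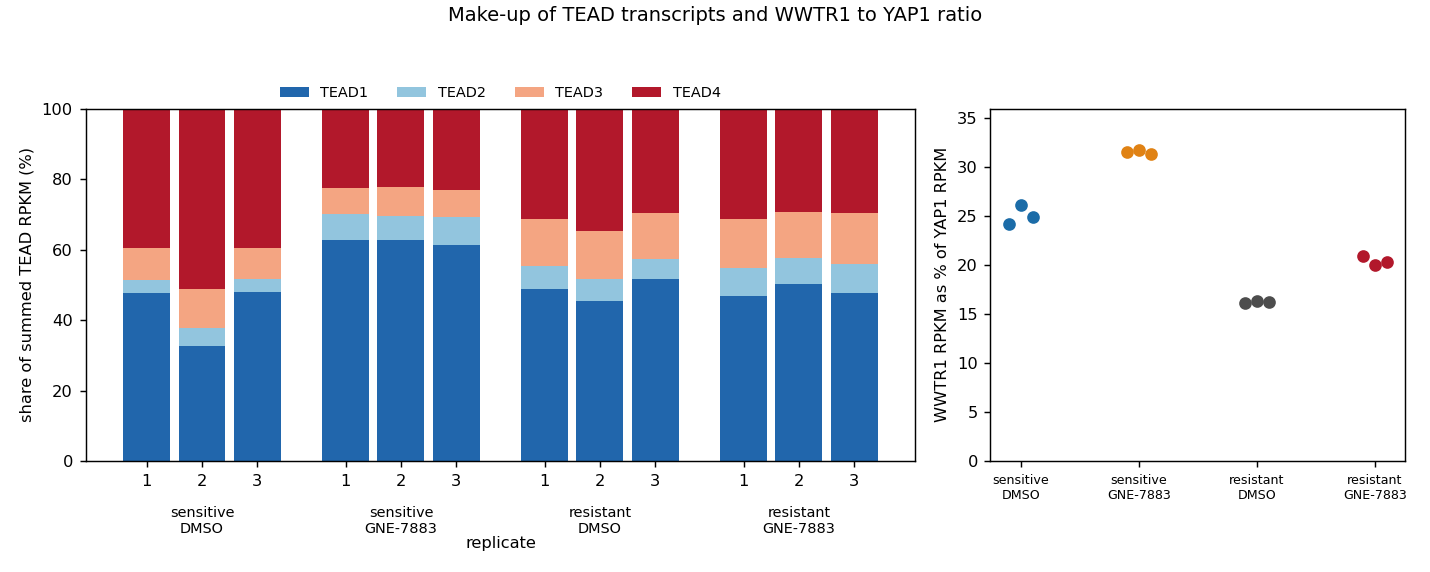
Share of the summed TEAD RPKM held by each TEAD gene, and the ratio of WWTR1 to YAP1 RPKM, both in percent (y axes), for each of the 12 libraries by group (x axis). The TEAD1 share is 62.2% in sensitive GNE-7883 cells, and the WWTR1 to YAP1 ratio runs from 16.2% in resistant DMSO to 31.6% in sensitive GNE-7883 cells.

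The vestigial-like cofactors moved little with GNE-7883. VGLL3 (ENSG00000206538, chr3:86876388-86991119, minus strand), a TEAD-binding cofactor, stood at 395, 243 and 398 CPM in sensitive DMSO and at 394, 347 and 364 CPM in sensitive GNE-7883. In the resistant line VGLL3 stood at 242, 234 and 255 CPM in DMSO and at 257, 255 and 251 CPM in GNE-7883. Sensitive libraries lay above all resistant ones except DMSO replicate 2, at 243 CPM, which lay among them. The drug gave log2 changes of 0.09 (interval -0.18 to 0.36) in sensitive and 0.06 (-0.21 to 0.34) in resistant cells. The sensitive value was -0.11 without sensitive DMSO replicate 2 and 0.20 without replicate 1 or 3, and was called in none of these fits (edgeR). The resistant line held less VGLL3 in DMSO, by -0.51 ± 0.13 (adjusted p = 0.0041, edgeR), and in GNE-7883, by -0.53 ± 0.13 (adjusted p = 0.00196, edgeR), and without replicate 2 the difference in DMSO was -0.70. Resistant GNE-7883 against sensitive DMSO gave -0.44 ± 0.13 (adjusted p = 0.0101, edgeR), lost without sensitive DMSO replicate 1 (-0.32, 0.0626) or 3 (-0.32, 0.0604), with p from 2.22e-10 to 0.0748 over the alternatives. The difference of the responses was -0.03, interval -0.42 to 0.36, and without replicate 2 it was called with the opposite sign, at 0.18 (adjusted p = 0.0462, edgeR; 0.0462 to 1 over the alternatives).

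VGLL4 (ENSG00000144560, chr3:11556070-11771350, minus strand), the competitor of YAP1 and TAZ for TEAD, measured 61.4, 53.7 and 64.4 CPM in sensitive DMSO and 64.2, 65.6 and 70.7 CPM in sensitive GNE-7883. Resistant libraries measured 66.1, 67.4 and 64.1 CPM of VGLL4 in DMSO and 72.9, 69.4 and 74.1 CPM in GNE-7883. The groups lay close together, and the resistant GNE-7883 libraries were the highest but for 1 sensitive GNE-7883 library at 70.7 CPM. VGLL4 was not called for GNE-7883 in sensitive cells (0.16, interval 0.02 to 0.30, adjusted p = 0.0548, edgeR) or in resistant cells (0.13, interval -0.01 to 0.27, adjusted p = 0.276). The sensitive response was called at 0.21 without sensitive DMSO replicate 3 (adjusted p = 0.0236) and was 0.08 and not called without replicate 2 (adjusted p = 0.187, edgeR; 0.0236 to 0.262 over the alternatives). The line difference was 0.14 in DMSO (interval -0.01 to 0.28), called at 0.20 without sensitive DMSO replicate 3 (adjusted p = 0.037) and 0.07, not called, without replicate 2 (adjusted p = 0.287, edgeR; 0.0149 to 0.287 over the alternatives). In GNE-7883 it was 0.11 (interval -0.03 to 0.25), called without sensitive DMSO replicate 2 at 0.12 (adjusted p = 0.0314, edgeR; 0.0225 to 0.35 over the alternatives). Resistant GNE-7883 cells held more VGLL4 than sensitive DMSO cells, by 0.27 ± 0.067 (adjusted p = 0.00375, edgeR). The VGLL4 responses of the lines differed by -0.03, interval -0.23 to 0.17, or by 0.05 without sensitive DMSO replicate 2. The 3′ end of ATG7, an autophagy gene on the opposite strand, shares 1596 exonic bases with VGLL4 and had 2581 to 4202 counts per library, so without strand the VGLL4 values are uncertain. ATG7 itself was 0.14 ± 0.05 higher in resistant than in sensitive DMSO cells (adjusted p = 0.0342, edgeR).

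The pathway around these genes was read from lists chosen with earlier results of these data known, so their directions are not independent evidence. The counts below stand against the shares of all genes called: 58.1% with GNE-7883 in sensitive and 9.22% in resistant cells, 48.7% between the lines in DMSO and 61.9% in GNE-7883, 47.1% between resistant GNE-7883 and sensitive DMSO cells, and 35.7% for the difference of the responses. Of the Hippo kinases and adaptors, 23 of 24 were tested. In sensitive cells GNE-7883 raised 6 and lowered 13 of them, against 29.8% and 28.4% of all genes, with a median log2 change of -0.29 against 0.02 over all genes, and in resistant cells it raised 0 and lowered 2. FRMD6, an upstream FERM-domain gene, fell from 371 ± 52.2 to 197 ± 4.6 CPM in sensitive cells, and LATS2, which phosphorylates the coactivators, from 137 ± 15.7 to 79.5 ± 1.64 CPM (SD, n = 3). The adaptor AMOTL2 fell from 123 ± 2.71 to 74.1 ± 5.72 CPM. AMOTL1, its relative, was 1.93 ± 0.15 higher on the log2 scale in resistant than in sensitive DMSO cells. WWC2 stood at -1.29 ± 0.11 and the kinase gene TAOK3 at 1.15 ± 0.061 in the same comparison. The sensitive DMSO libraries spread widely for AMOTL1, at 4.33 ± 1.4 CPM, and for WWC2, at 285 ± 61.9 CPM (SD, n = 3). Between the lines 9 of the 23 were higher and 8 lower in DMSO, 11 and 5 in GNE-7883, and 7 and 8 between resistant GNE-7883 and sensitive DMSO cells. The response differed upward for 7 and downward for 2.

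Of the 11 genes that bind or turn over YAP1 and TAZ, 14-3-3 and degradation genes among them, GNE-7883 raised 2 and lowered 6 in sensitive cells, where 29.8% of all genes rose and 28.4% fell, and lowered 1 in resistant cells, where 3.97% fell. SFN, the 14-3-3 sigma gene, fell by 1.82 on the log2 scale in sensitive cells, from 109 ± 12.7 to 31 ± 1.48 CPM, and CSNK1E, a casein kinase gene, by 0.46. YWHAH was higher in the resistant line in DMSO, by 0.53 ± 0.051 (edgeR, adjusted p = 3.05e-07). In the line comparisons 5 of the 11 were higher and 2 lower in DMSO, 8 and 2 in GNE-7883, and 5 and 1 between resistant GNE-7883 and sensitive DMSO cells, and the response differed upward for 3. Of 13 other cofactors of TEAD or YAP1, 10 were tested, and 4 rose and 2 fell with GNE-7883 in sensitive cells, a share near the 58.1% of all genes called, and 1 rose in resistant cells. NCOA1 and NCOA3, nuclear receptor coactivators, rose by 1.0 ± 0.1 and 0.95 ± 0.12 in sensitive cells, and RUNX1, a transcription factor, by 0.66 ± 0.069. The sensitive DMSO libraries spread widely for NCOA1, at 31.4 ± 5.78 CPM, and for NCOA3, at 117 ± 27.7 CPM (SD, n = 3). RUNX2 was higher in the resistant line in DMSO by 0.85 ± 0.094. In the line comparisons 4 of the 10 were higher and 2 lower in DMSO, 3 and 3 in GNE-7883, and 6 and 2 between resistant GNE-7883 and sensitive DMSO cells, with 1 upward and 3 downward differences of response.

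Of 22 genes known as YAP and TEAD targets, 2 rose and 17 fell in sensitive cells with GNE-7883, at a median of -0.76, and in resistant cells 0 rose and 8 fell, at -0.18. Of all genes, 28.4% fell in sensitive and 3.97% in resistant cells. CCN2, a matricellular protein gene, went from 64.3 ± 0.934 to 8.49 ± 0.299 CPM in sensitive cells and from 102 ± 4.27 to 69.3 ± 1.61 CPM in resistant cells (SD, n = 3). The coagulation factor gene F3 fell by 2.81 and by 0.62 on the log2 scale in the respective lines, and ANKRD1 changed by -2.60 and -0.73. In DMSO the resistant line differed from the sensitive line by -1.38 ± 0.1 for ANKRD1, -1.19 ± 0.049 for IGFBP3 and 1.06 ± 0.064 for GADD45A. AMOTL2, LATS2 and PTPN14 stand in this list and among the Hippo genes above. In the line comparisons 11 of the 22 were higher and 9 lower in DMSO, 17 and 3 in GNE-7883, and 8 and 11 between resistant GNE-7883 and sensitive DMSO cells. The difference of the responses was positive for 17 and negative for 1.

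Nearby genes were read to see whether a member differed alone on its chromosome. For each member the 5 tested genes on each side were taken at any distance, over chr3:75421552-88149885 for VGLL3. Of the 10 around YAP1, within chr11:96389989-102836766, 3 were higher and 1 lower in resistant than in sensitive DMSO cells. Their median log2 difference was 0.37 against 0.33 for YAP1, and some had few counts, such as WTAPP1 at a mean of 0.195 CPM. The closest protein-coding pair downstream, the apoptosis inhibitor genes BIRC3 and BIRC2, named after their values were seen, stood at -0.62 ± 0.081 and 0.34 ± 0.066. Around TEAD4, at -0.81, 3 were higher and 5 lower, from -1.11 to 1.93, with a median of -0.08. The lowest, ENSG00000250899 at -1.11 ± 0.09, averaged 27.3 CPM. It lies at chr12:3041437-3044950, just past the end of TEAD4, so TEAD4 did not differ alone there. WWTR1, at -0.30, had 1 higher and 4 lower among its 10, with a median of -0.07. The counts higher and lower were 4 and 1 for TEAD1, 1 and 4 for TEAD2, 3 and 2 for TEAD3, 3 and 1 for VGLL3 and 1 and 4 for VGLL4. In all, 41 of these 80 neighbours were called, 51.2%, near the 48.7% of all genes.

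Only WWTR1 and, narrowly, TEAD4 had group means that spanned more than 1 on the log2 CPM scale, and by the rule for named genes only their nearest genes in pattern are given, over 12 libraries and 10180 protein-coding genes of at least 5 CPM. Closest to WWTR1 were KLF9, with a root mean square log2 difference of 0.061, and TTC3, at 0.0646. KLF9 averaged 60.6 CPM in DMSO and 98.5 CPM in GNE-7883 in sensitive cells, and 47.8 and 60.1 CPM in resistant cells. Closest to TEAD4 were IGFBP4, at 0.0731, and EXOSC5, at 0.0949, and IGFBP4 averaged 1114, 589, 634 and 610 CPM in the same groups.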

How the data were processed

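The authors deposited whole-number counts per Ensembl gene, with no normalization, and RPKM values for the same 12 libraries. Count over library total over RPKM was constant per gene, within 9.5e-09, over 12122 genes of at least 50 counts. GSNAP, limma and GRCh38.p10 are named per the submitters' processing notes. Counter, annotation and strand setting: not given in the sources used here. The TruSeq RNA v2 kit, per the labels' protocols, does not mark strand. Symbols were found for 57532 identifiers, and positions and exons come from GENCODE 29. Promoters are from RefSeq.

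Counts were tested with edgeR 4.0.16 in R 4.3.3 (TMM, filterByExpr by group, 18035 genes, quasi-likelihood, 1 mean per group over 12 libraries, 8 residual degrees of freedom, two-sided, Benjamini-Hochberg per comparison, called under 0.05), in 6 comparisons, and the code was tested on simulated data. Summaries and figures were made in Python 3.11.15. Alternatives were DESeq2 1.42.0 (test and size factors), limma 3.58.1 on log2(RPKM + 0.1), no filter or 5 CPM, only the groups compared, a replicate block, GENCODE lengths and each library left out. Counts of 0 allow up to 3 counts (0.0639 to 0.0941 CPM). The floors cover counting error only, while the intervals of log2 changes include the spread between libraries. No source says that replicates were separate cultures, and the p-values therefore reflect spread among these libraries alone, possibly technical.

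Members and lists were chosen with earlier results of these data known. Named genes are the members, NF2, up to 3 called genes per list and comparison with the largest log2 change among those of at least 5 CPM, and for members spanning over 1 in log2 CPM the 2 genes of nearest pattern, and cell type markers. ATG7, BIRC2, BIRC3 and ENSG00000250899 were named outside this rule, after their values were seen. Lists were Hippo kinases and adaptors, YAP and TAZ binding and turnover genes, other TEAD and YAP cofactors, YAP/TEAD targets, and mesothelial, epithelial, alveolar and airway, blood, endothelial and fibroblast markers.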

Additional observations from a re-analysis of the deposited data

Results flagged for a closer look

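The response to GNE-7883 differed between the lines for 5 of the 8 members by the interaction term of the edgeR quasi-likelihood test. As resistant minus sensitive log2 response, the values were 0.88 for TEAD4 (adjusted p = 5.35e-06), 0.40 for TEAD3 (0.00254), -0.49 for WWTR1 (0.00208), -0.48 for TEAD2 (0.005) and -0.49 for YAP1 (0.00533). TEAD4 and TEAD3 fell in sensitive cells, where WWTR1, TEAD2 and YAP1 rose. In resistant cells WWTR1 and TEAD2 rose by less, and YAP1, TEAD3 and TEAD4 gave -0.01, 0.03 and -0.12. Without sensitive DMSO replicate 2 the difference of the responses was also called for TEAD1 (-0.27, adjusted p = 0.00466, edgeR) and VGLL3 (0.18, 0.0462).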

How the results depend on the processing

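Of 48 member results, 32 kept their call under every alternative run (at most 19 each), and the called ones among them kept their direction. Some uncalled ones changed sign, such as VGLL3 with GNE-7883 in sensitive cells, from -0.11 to 0.20. The remaining 16 changed under at least 1. The VGLL3 difference of responses, -0.03, ran from -0.13 to 0.18 with a library left out, the sign reversing without sensitive DMSO replicate 2, and the cause was not tested. Leaving out each library moved the genes called in resistant cells with GNE-7883 from 1663 to between 854 and 3060, the highest without sensitive DMSO replicate 2, and the members called there from 2 to between 0 and 2. With GENCODE lengths in place of those behind the RPKM, the TEAD1 share in sensitive GNE-7883 cells was 63.5%, the TEAD3 share was 8.58% there and 14.9% and 15.4% in resistant cells in DMSO and GNE-7883, and the TEAD4 share was 20.3%, 28.9% and 27.1%. The WWTR1 to YAP1 ratio was 17.9%, 22.6%, 11.6% and 14.6%. No pairing by replicate number was seen. Over 10859 genes, the correlation of deviations ran from -0.618 to 0.575 for 18 pairs of the same number and from -0.617 to 0.601 for 36 others. Of 12 libraries, 3 correlated best with their own number. Deviations from means of 3 libraries are tied to each other, so these correlations cannot exclude pairing. With a replicate block, 1372 genes were called in resistant cells, the TEAD2 line difference in DMSO was 0.22 (adjusted p = 0.0584, edgeR) and the TEAD1 difference of responses -0.51 (0.0444). Depth does not limit the members, the lowest of which had 431 counts.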
